A study of Mus musculus with 8 samples.

Results

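Translation initiation and elongation factors are the proteins that bring ribosomes to messenger RNAs, start them at the right codon and move them along. Their transcripts were compared between Carm1 KO and Control KO OT-I CD8 T cells. The genes were chosen by name, as the protein-coding genes whose symbol begins with Eif1 to Eif6, Eef1 or Eef2, leaving out Eif2s3y. These were 66 of the 49315 genes counted, 54 named as initiation factors or their regulators and 12 as elongation factors or their modifiers. OT-I T cells are CD8 T cells of a mouse strain whose transgenic receptor recognises an ovalbumin peptide. Naive cells from spleen and inguinal lymph nodes were nucleofected with a CRISPR RNA against Carm1, which encodes an arginine methyltransferase, or against the bacterial gene LacZ in the Control KO, and both arms were cultured with interleukin-7 and interleukin-15. RNA was taken 7 days after editing. The edited cells were a pool and not a clone, and guide sequences and the age of the mice were not used here. The sample protocols do not mention other cells in the culture, while the series text places both arms with B16F10-Ova melanoma cells.

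There were 4 libraries in each group, which the labels call technical replicates, so the p-values below measure only the spread between these libraries. Total counts ran from 37556330 to 39988442 in the Carm1 KO and from 38768760 to 41439998 in the Control KO libraries. Levels are CPM, counts relative to library sizes scaled by trimmed mean of M-values (TMM), or TPM, which also divides by gene length, where genes are compared with each other. Differences are log2 fold changes, Carm1 KO minus Control KO, with standard errors (SE), and a gene was called higher or lower at an adjusted p under 0.05 over 14970 genes. Errors of levels are SD with n = 4. In RNA from whole cultures, fewer cells of a type and less RNA per cell cannot be told apart. Carm1 itself had 32.8, 33.2, 33.0 and 32.1 CPM in the Carm1 KO libraries, against 94.4, 95.9, 96.9 and 96.3 CPM in the Control KO libraries. The libraries thus followed their labels, although a frameshift edit need not lower the RNA. The 7 CD8 T cell markers were present in both groups, and 5 were higher while 2, Cd2 and Thy1, were lower. They summed to 6400 to 6600 CPM in Carm1 KO and 5327 to 5457 CPM in Control KO libraries. All 7 myeloid markers examined were lower, with sums of 4.11 to 5.17 CPM in Carm1 KO and 112 to 116 CPM in Control KO libraries, and none was at 0 counts over either group. Of 5 B cell markers 2 were higher and 1 was lower, and sums were 18.6 to 20.4 CPM in Carm1 KO and 23.3 to 24.4 CPM in Control KO libraries. The 2 natural killer and 2 erythroid markers were lower and summed to at most 1.56 and 0.0718 CPM in Carm1 KO and 3.80 and 3.99 CPM in Control KO libraries. Of the melanoma markers, Tyr, Tyrp1, Dct and Sox10 had 0 counts in every library, while Pmel was at 12.7 ± 0.563 CPM in Carm1 KO and 3.43 ± 0.147 CPM in Control KO libraries. The part of these cell type differences in the results below was not tested.

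Initiation begins when eIF1, eIF1A, eIF3, eIF5 and the eIF2 complex with its initiator tRNA load the small ribosomal subunit, and the cap-binding eIF4 proteins bring it to an mRNA. Phosphorylation of the eIF2 alpha subunit and the 4E-binding proteins under mTORC1 restrain these steps, and in T cells both protein synthesis and the factors that drive it are known to rise sharply on activation. In elongation eEF1A delivers aminoacyl-tRNAs, eEF2 moves the ribosome, and Eif5a helps it through difficult peptide bonds.

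Promoter sequences are shown for the genes among the 6 largest rises and 6 largest falls whose promoter held the letters CACGTG, the core of the E-box to which MYC family factors are known to bind, and for Eif4g1, which encodes the scaffold that joins eIF4E to the ribosome. RefSeq promoters (GRCm38.p6, the assembly of mm10) were matched for 50 of the 66 genes, 65 starts in all. Of the largest rises and falls, Eif2ak3, Eif2a, Eef1e1 and Eif3b had matched promoters without CACGTG, and Eif3e, Eif1a and Eif6 had no promoter matched. Eif4g1 lies outside these rises and falls. Each line runs from 160 bases before the annotated start through the first 22 bases after it, 5′ to 3′ on the gene's strand. Capitals mark CACGTG, TGACGTCA (a cyclic AMP response element) in Eef2, and in Eif3f the C at the start with the pyrimidines that follow it, a feature of mRNAs whose translation depends on mTORC1. The windows are chr11:69921365-69921546 (minus strand) for Eif5a, chr3:28781117-28781298 (plus strand) for Eif5a2, chr3:138527108-138527289 (plus strand) for Eif4e, chr16:20672567-20672748 (plus strand) for Eif4g1, chr10:81176471-81176652 (plus strand) for Eef2 and chr7:108934255-108934436 (plus strand) for Eif3f.
Eif5a: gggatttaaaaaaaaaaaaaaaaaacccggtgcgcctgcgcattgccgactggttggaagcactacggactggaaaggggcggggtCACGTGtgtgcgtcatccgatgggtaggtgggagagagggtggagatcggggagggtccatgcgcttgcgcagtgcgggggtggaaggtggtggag
Eif5a2: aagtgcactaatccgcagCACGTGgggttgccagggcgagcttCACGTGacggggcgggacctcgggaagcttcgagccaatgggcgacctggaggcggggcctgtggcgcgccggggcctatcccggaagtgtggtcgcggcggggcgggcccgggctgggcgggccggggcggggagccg
Eif4e: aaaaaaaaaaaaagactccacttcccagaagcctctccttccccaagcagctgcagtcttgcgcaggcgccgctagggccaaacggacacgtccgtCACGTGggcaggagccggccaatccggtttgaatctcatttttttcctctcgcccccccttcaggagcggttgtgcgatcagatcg
Eif4g1: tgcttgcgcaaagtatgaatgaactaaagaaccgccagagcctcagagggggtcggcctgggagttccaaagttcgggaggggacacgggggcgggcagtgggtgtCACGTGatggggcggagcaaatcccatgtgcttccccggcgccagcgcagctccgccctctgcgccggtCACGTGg
Eef2: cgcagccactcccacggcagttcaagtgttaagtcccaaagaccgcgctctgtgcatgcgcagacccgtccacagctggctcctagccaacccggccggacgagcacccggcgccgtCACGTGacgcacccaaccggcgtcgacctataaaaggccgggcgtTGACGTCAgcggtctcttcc
Eif3f: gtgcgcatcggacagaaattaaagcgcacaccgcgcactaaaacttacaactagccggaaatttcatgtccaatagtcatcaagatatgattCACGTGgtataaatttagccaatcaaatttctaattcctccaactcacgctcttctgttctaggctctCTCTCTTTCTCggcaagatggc

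With the start base counted as 1 and the base before it as -1, CACGTG began at -74 in Eif5a (of several starts, that with the letters nearest), at -142 and -117 in Eif5a2, at -64 in Eif4e, at -54 and 16 in Eif4g1, at -43 in Eef2 and at -68 in Eif3f. Among the other starts of Eif5a, some had CACGTG farther away and some had none. Eif4e held a further copy at -228, outside the stretch shown. Its other annotated start, nearer the 5′ end of the gene, had no CACGTG in its window. Over the full RefSeq window, 250 bases before to 50 after a start, CACGTG was found in 12 of the 50 genes (24%) and in 8.09% of the 27025 genes in the table. It was found in 3 of 10 genes that were higher and 9 of 37 that were lower, while over all tested genes with a promoter the shares were 9.41% of those higher and 13.9% of those lower. The other genes with these letters were Eef2k, Eif1b, Eif3a, Eif3k, Eif4a1 and Eif4h. TGACGTCA was found in 1 of 50 genes (2%), Eef2, against 2.03% of the table, and a C with at least 4 pyrimidines after it stood at the start of Eif3f and Eif2s3x (4%, against 3.01%). The run was sought only at the annotated start base. Pyrimidine runs some bases away from it, as at the end of the Eef2 line, were not counted, so genes with such a run can be missed. Each motif reads the same on both strands except the start run, which was read on the gene's strand only, and CACGTG and TGACGTCA can share letters only at their ends but did not in Eef2. A match describes the letters only.

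Translation factor transcripts were more often lower than higher in Carm1 KO cells, and the largest falls were in Eif5a, Eef1e1, Eif3b, Eif1a, Eif6 and Eif4e. Of the 66 genes 62 passed the filter on low counts, and of these 12 were higher, 48 were lower and 2 did not pass the test, where over all genes tested 87.7% were called, 44.5% higher and 43.2% lower. At least 2-fold differences were found for 1 higher and 20 lower genes, where the shares over all genes tested were 20.5% and 15.2%. The 1 became 2 without Carm1 KO replicate 4 or without Control KO replicate 1, 2 or 3, when Eef1akmt3 passed the filter. The groups did not overlap for 56 of the 62 genes, where 83.4% of all genes tested did not. Log2 fold changes had a median of -0.55 over the 62 genes and of 0.02 over all 14970 genes tested. Among the 9856 tested genes with a mean of at least 5 CPM, 4032 were higher and 5069 lower, with a median of -0.11. Of these 9856 genes 1185 were at least 2-fold higher and 1407 at least 2-fold lower, and the groups did not overlap for 8791. Scaling moved the smaller differences. With upper-quartile factors the median of all genes moved by 0.215 and the counts were 21 higher and 38 lower, and with library totals alone they were 16 and 38 after a move of 0.160. The direction of 10 genes turned with at least 1 of these scalings: Eef1a1, Eef1b2, Eef2k, Eif1, Eif3k, Eif4a2, Eif4b, Eif4ebp1, Eif4ebp2 and Eif4g3. The test against a 1.5-fold change was passed by 33 genes, 4 of them higher and 29 lower.

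**Figure D1:**
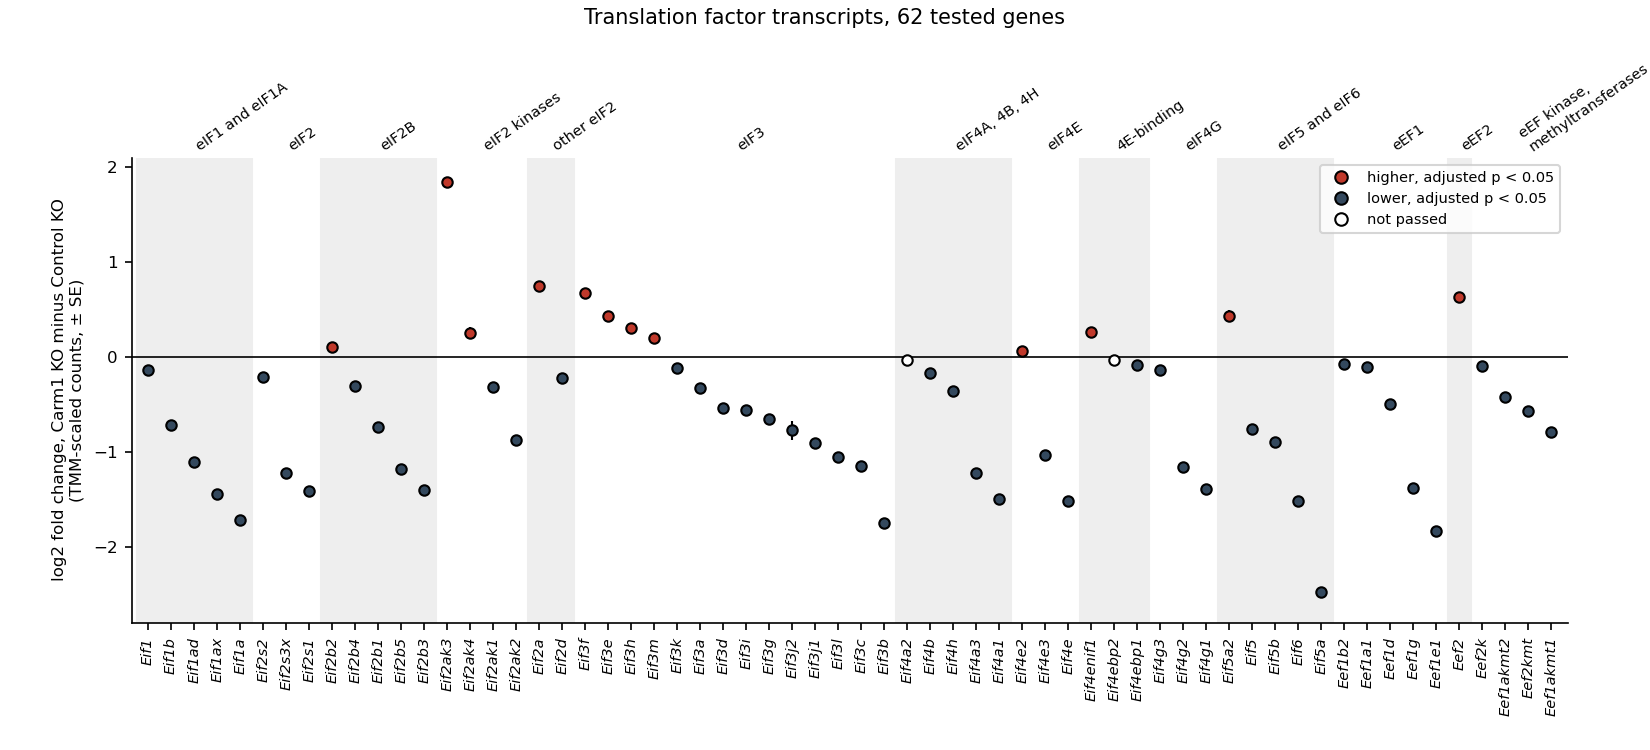
Log2 fold change (Carm1 KO minus Control KO) of the 62 tested translation factor genes, grouped by complex, with bars of 1 SE where they exceed the symbol. Filled symbols mark the 12 genes called higher and the 48 called lower, and open symbols Eif4a2 and Eif4ebp2, which did not pass. The direction of 10 genes near 0 (Eef1a1, Eef1b2, Eef2k, Eif1, Eif3k, Eif4a2, Eif4b, Eif4ebp1, Eif4ebp2 and Eif4g3) turns with upper-quartile factors.

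The factors eIF1 and eIF1A prepare the small subunit for scanning. All 5 genes grouped with them by name were called lower, where 43.2% of all genes tested were, although Eif1 turned positive with other scalings. Eif1, which guards start codon choice, had 427, 410.4, 407 and 432 CPM in the Carm1 KO libraries, against 451, 463, 465 and 471 CPM in the Control KO libraries. Its log2 fold change of -0.14 ± 0.023 (SE; edgeR adjusted p = 3.64e-07) turned positive with upper-quartile factors and with library totals alone, so its direction depends on scaling. Eif1b, its close paralogue, had 42.5, 41.6, 40.5 and 41.2 CPM in the Carm1 KO libraries, against 66.9, 69.9, 69.0 and 66.5 CPM in the Control KO libraries, a log2 fold change of -0.71 ± 0.029 (SE; edgeR adjusted p = 1.05e-24). Its groups lay apart, and its fall was larger than that of Eif1.

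Eif1a and Eif1ax encode eIF1A, which binds the ribosomal A site while the subunit scans. Eif1a had 46.5, 45.7, 45.7 and 48.4 CPM in the Carm1 KO libraries, against 156, 153, 155 and 148 CPM in the Control KO libraries, and fell 3.29-fold (log2 fold change -1.72 ± 0.027, edgeR adjusted p = 1.67e-39). Eif1ax had 63.4, 64.1, 61.96 and 62.7 CPM in the Carm1 KO libraries, against 173, 174, 171 and 171 CPM in the Control KO libraries, a 2.73-fold fall (log2 fold change -1.45 ± 0.024, edgeR adjusted p = 2.38e-38). No Carm1 KO library of either gene came near the Control KO libraries. Eif1ad, which encodes a protein with an eIF1A-like domain, was at 45.2 ± 0.709 CPM in Carm1 KO and 97.1 ± 0.709 CPM in Control KO libraries and fell 2.15-fold. Per length, Eif1 stood highest of the 5 genes in both groups, at 514 ± 5.01 TPM in Carm1 KO and 548 ± 11.3 TPM in Control KO libraries.

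The eIF2 complex carries the initiator tRNA, and its 3 subunit genes were lower by unequal amounts, where 43.2% of all genes tested were lower. Eif2s1, the alpha subunit that the stress kinases phosphorylate, had 97.0, 95.1, 90.7 and 94.6 CPM in the Carm1 KO libraries, against 257, 249.9, 249 and 249 CPM in the Control KO libraries. It fell 2.66-fold (log2 fold change -1.41 ± 0.024, edgeR adjusted p = 5.36e-38), and Eif2s3x, the gamma subunit, fell 2.34-fold, to 91.5 ± 1.35 CPM in Carm1 KO, against 214 ± 2.76 CPM in Control KO libraries. Eif2s2, the beta subunit, fell only 1.16-fold, to 193 ± 11.6 CPM in Carm1 KO, against 224 ± 3.68 CPM in Control KO libraries, a call that did not hold with library totals alone (edgeR adjusted p = 0.0558) or upper-quartile factors (edgeR adjusted p = 0.969). Per length the order of the subunits changed. In Carm1 KO libraries Eif2s2 (73.4 ± 1.87 TPM) and Eif2s1 (71.3 ± 1.93 TPM) overlapped and lay above Eif2s3x (61.8 ± 2.48 TPM), whereas in Control KO libraries Eif2s1 (183 ± 5.52 TPM) was highest, then Eif2s3x (139.7 ± 4.03 TPM), then Eif2s2 (82.5 ± 2.75 TPM), with no overlap.

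The exchange factor eIF2B, which reloads eIF2 with GTP, had 4 subunit genes lower and 1 higher. Of all genes tested 43.2% were lower and 44.5% higher. Eif2b5, the catalytic epsilon subunit, had 60.1, 55.5, 56.5 and 55.0 CPM in the Carm1 KO libraries, against 129.9, 129, 129 and 125 CPM in the Control KO libraries, and fell 2.26-fold (log2 fold change -1.18 ± 0.027, edgeR adjusted p = 1.59e-33). Eif2b3, the gamma subunit, was at 16.3 ± 0.602 CPM in Carm1 KO and 43.1 ± 1.29 CPM in Control KO libraries and fell 2.65-fold. Eif2b1 and Eif2b4, the alpha and delta subunits, fell 1.67-fold and 1.24-fold. Eif2b2, the beta subunit, was at 76.1 ± 1.93 CPM in Carm1 KO and 71.0 ± 2.11 CPM in Control KO libraries, a log2 fold change of 0.10 ± 0.027 (SE; edgeR adjusted p = 0.000672) that did not pass the test against a 1.5-fold change. In TPM Eif2b2 was the highest of the 5 in Carm1 KO libraries, while Eif2b5 was the highest in Control KO libraries. Eif2b3 was the lowest in both groups, at 6.41 ± 0.0802 TPM in Carm1 KO and 16.4 ± 0.566 TPM in Control KO libraries.

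Among the 4 kinases that phosphorylate eIF2 alpha, 2 were higher and 2 were lower, against 44.5% and 43.2% of all genes tested. Eif2ak3, which encodes the endoplasmic reticulum stress kinase PERK (ENSMUSG00000031668, chromosome 6, 70844515 to 70905245, plus strand, mm10), had 109, 115, 113 and 112 CPM in the Carm1 KO libraries, against 29.9, 31.8, 32.3 and 30.6 CPM in the Control KO libraries. It rose 3.59-fold (log2 fold change 1.85 ± 0.029, edgeR adjusted p = 1.83e-39), the largest rise of the 62 genes, and its groups were far apart. Eif2ak4, which encodes the amino acid sensor GCN2, had 21.6, 25.1, 25.1 and 23.0 CPM in the Carm1 KO libraries, against 19.1, 19.4, 22.3 and 18.7 CPM in the Control KO libraries. These groups overlapped, although the log2 fold change of 0.26 ± 0.054 (SE; edgeR adjusted p = 0.000107) was called. Eif2ak2, the kinase PKR that senses double-stranded RNA, fell 1.84-fold to 43.2 ± 1.57 CPM in Carm1 KO, against 79.5 ± 1.83 CPM in Control KO libraries, and Eif2ak1, the haem-regulated kinase, fell 1.25-fold. Per length the Carm1 KO order was Eif2ak3 (47.8 ± 2.64 TPM), Eif2ak1 (28.8 ± 1.47 TPM), Eif2ak2 (21.7 ± 0.963 TPM) and Eif2ak4 (8.21 ± 0.874 TPM). In Control KO libraries it was Eif2ak2 (38.6 ± 1.47 TPM), Eif2ak1 (34.6 ± 1.61 TPM), Eif2ak3 (12.8 ± 0.254 TPM) and Eif2ak4 (6.62 ± 0.493 TPM). The PERK transcript was thus the highest of the kinases in Carm1 KO and the third in Control KO libraries.

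Partners of these kinases and targets of phosphorylated eIF2 were mixed, with 2 of 9 higher, 6 lower and 1 not passing (median log2 fold change -0.18), where 44.5% of all genes tested were higher and 43.2% lower. With upper-quartile factors 4 of the 9 were higher. Gcn1l1, which activates GCN2, was at 97.8 ± 5.19 CPM in Carm1 KO and 206 ± 2.60 CPM in Control KO libraries (2.10-fold lower, adjusted p = 1.10e-28 by edgeR). Atf4, the transcription factor translated when eIF2 is phosphorylated, was at 146 ± 2.39 CPM in Carm1 KO and 238 ± 1.95 CPM in Control KO libraries and fell 1.63-fold. Ppp1r15b, which guides a phosphatase to eIF2, fell 1.43-fold, while Ddit3, which encodes the stress transcription factor CHOP, rose 1.504-fold to 21.2 ± 0.650 CPM in Carm1 KO, against 14.1 ± 0.796 CPM in Control KO libraries.

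Eif2a and Eif2d encode proteins that can bring initiator tRNA without the eIF2 complex, and they moved in opposite directions. Eif2a (ENSMUSG00000027810, chromosome 3, 58525821 to 58557501, plus strand, mm10) had 164, 163, 165 and 171 CPM in the Carm1 KO libraries, against 103, 99.1, 96.3 and 97.3 CPM in the Control KO libraries. It rose 1.67-fold with no overlap (log2 fold change 0.74 ± 0.025, edgeR adjusted p = 2.04e-27). Eif2d was at 43.7 ± 1.42 CPM in Carm1 KO and 50.8 ± 0.726 CPM in Control KO libraries, a log2 fold change of -0.22 whose call did not hold with library totals alone (edgeR adjusted p = 0.0724) or upper-quartile factors (edgeR adjusted p = 0.888).

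**Figure D2:**
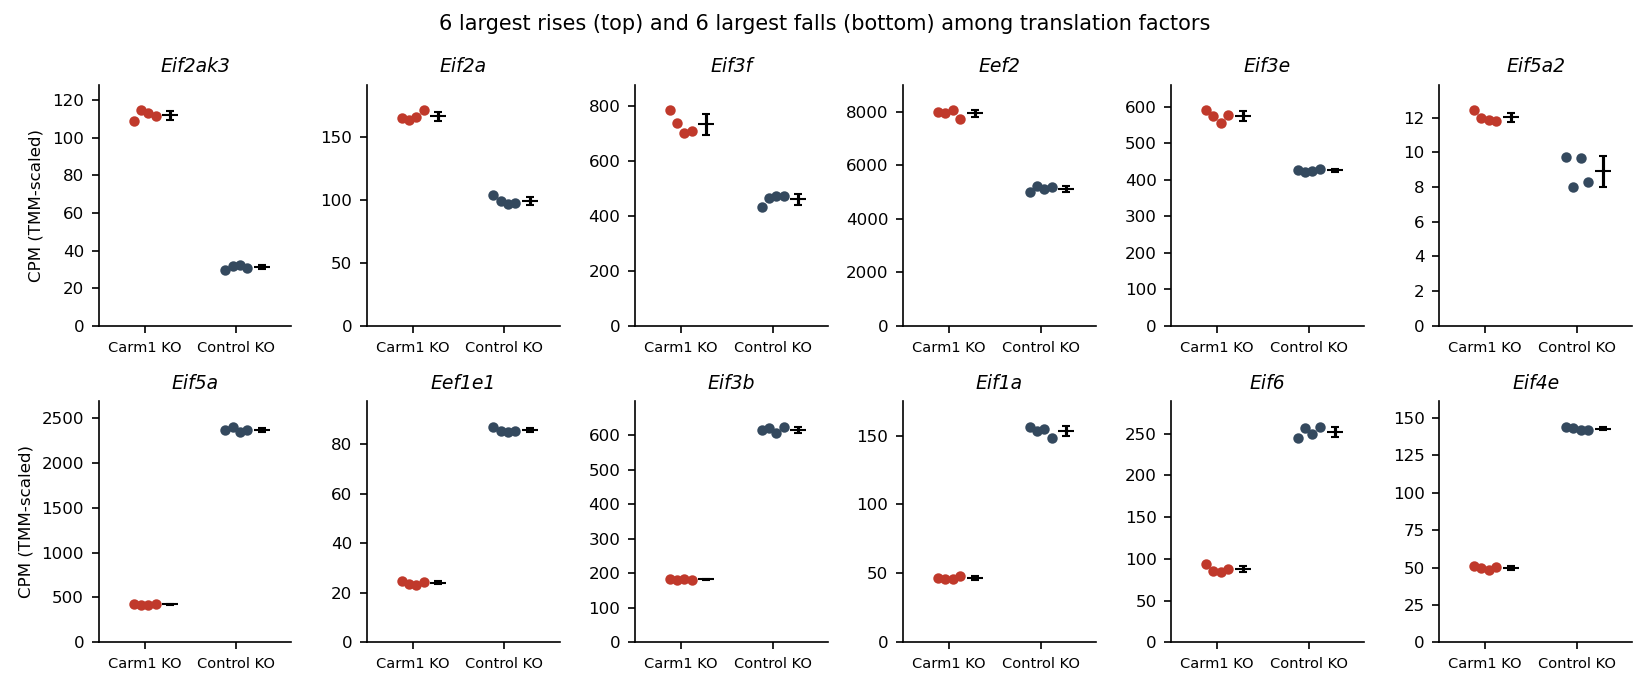
CPM in each library for the 6 largest rises (upper row) and 6 largest falls (lower row) among translation factors with a mean of at least 5 CPM. Points are libraries, with the mean and SD of the 4 libraries beside them, Carm1 KO on the left of each panel and Control KO on the right. The groups do not overlap in any panel, and Eif5a is at 418 to 432 CPM in Carm1 KO and 2341 to 2398 CPM in Control KO libraries.

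The eIF3 complex is the large scaffold that holds the small subunit, the other factors and the mRNA together. Of its 14 genes 4 were higher (Eif3e, Eif3f, Eif3h and Eif3m) and 10 were lower, where 44.5% of all genes tested were higher and 43.2% lower, and the fall of Eif3k turned with scaling. None of the 14 overlapped between the groups, as was so for 83.4% of all genes tested. Eif3f, Eif3h and Eif3m are known to sit together in a module of the complex. Eif3f (ENSMUSG00000031029, chromosome 7, 108934417 to 108942951, plus strand, mm10) had 786, 739.5, 704 and 709 CPM in the Carm1 KO libraries, against 433, 465, 475 and 474 CPM in the Control KO libraries. It rose 1.59-fold (log2 fold change 0.67 ± 0.036, edgeR adjusted p = 1.73e-10). Eif3e (ENSMUSG00000022336, chromosome 15, 43250040 to 43282736, minus strand, mm10) had 590.1, 575, 556 and 579 CPM in the Carm1 KO libraries, against 427, 421, 425 and 430.2 CPM in the Control KO libraries, a 1.35-fold rise (log2 fold change 0.43 ± 0.022, edgeR adjusted p = 2.91e-21). Eif3h had 702, 693, 692 and 692 CPM in the Carm1 KO libraries, against 556, 571, 563 and 567 CPM in the Control KO libraries, and rose 1.23-fold. Eif3m was at 299 ± 11.4 CPM in Carm1 KO and 261 ± 3.79 CPM in Control KO libraries and rose 1.15-fold.

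Eif3b, the subunit that organises Eif3g and Eif3i, showed the largest fall of the complex. Eif3b (ENSMUSG00000056076, chromosome 5, 140419328 to 140443360, plus strand, mm10) had 183, 181, 185 and 181 CPM in the Carm1 KO libraries, against 614, 620.3, 605 and 624 CPM in the Control KO libraries, and fell 3.38-fold (log2 fold change -1.75 ± 0.022, edgeR adjusted p = 9.39e-43). Eif3g fell 1.58-fold to 153 ± 5.49 CPM in Carm1 KO, against 241 ± 4.30 CPM in Control KO libraries, and Eif3i fell 1.48-fold to 219 ± 7.46 CPM in Carm1 KO, against 323 ± 3.61 CPM in Control KO libraries. Eif3c and Eif3l also fell at least 2-fold, with Eif3c 2.21-fold lower at 249.7 ± 5.10 CPM in Carm1 KO and 553 ± 6.88 CPM in Control KO libraries. Eif3l was 2.08-fold lower at 148 ± 1.81 CPM in Carm1 KO and 308 ± 4.03 CPM in Control KO libraries. Eif3a, the largest subunit, fell 1.25-fold, and Eif3d, which can bind caps itself, fell 1.46-fold. Eif3k had a log2 fold change of -0.11 that turned positive with upper-quartile factors and with library totals alone.

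Eif3j1 and Eif3j2 encode the loosely bound j subunit. Eif3j1 had 55.3, 53.2, 52.3 and 58.3 CPM in the Carm1 KO libraries, against 104, 102, 101 and 103 CPM in the Control KO libraries, a 1.87-fold fall (log2 fold change -0.90 ± 0.027, edgeR adjusted p = 5.87e-29). Eif3j2 was far lower, with 2.34, 2.45, 2.62 and 2.13 CPM in the Carm1 KO libraries, against 4.56, 3.97, 4.04 and 3.74 CPM in the Control KO libraries, and a log2 fold change of -0.77 ± 0.1 (SE; edgeR adjusted p = 3.86e-09). Reads of such near-identical genes could have been split between them, so the level of each is uncertain.

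In TPM the subunits lay in a different order in the groups. Carm1 KO libraries had Eif3h (1427 ± 45.1 TPM), Eif3e (959.6 ± 21.4 TPM) and Eif3f (654 ± 30.5 TPM) at the top, each apart from the next, and then Eif3m (296 ± 4.94 TPM), which overlapped with Eif3d (281 ± 8.99 TPM). In Control KO libraries Eif3h (1119 ± 14.7 TPM) and Eif3e (687 ± 17.0 TPM) were followed by Eif3b (457 ± 11.03 TPM), and then by Eif3l (404 ± 3.09 TPM), Eif3f (397 ± 14.0 TPM), Eif3d (395 ± 7.79 TPM) and Eif3c (391 ± 2.01 TPM), neighbours that overlapped. Eif3b was the lowest of the subunits other than the j genes in Carm1 KO libraries, at 140.3 ± 5.56 TPM, where it overlapped with Eif3i at 152 ± 3.91 TPM.

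**Figure D3:**
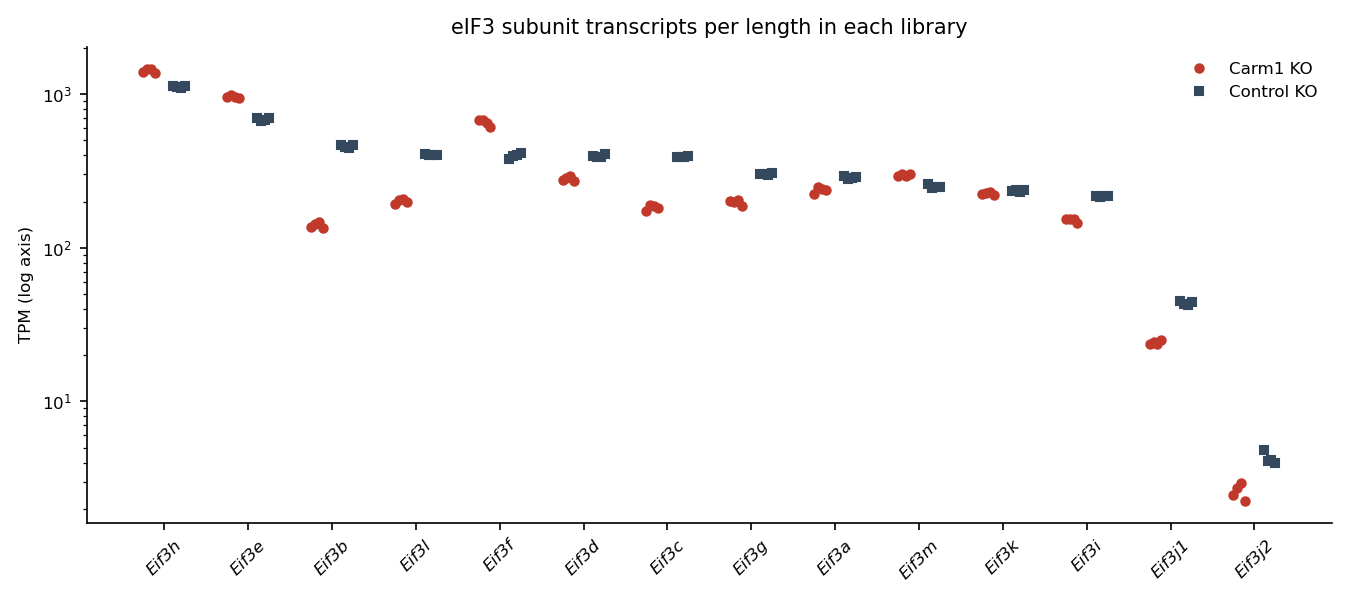
TPM of the 14 eIF3 genes in each library on a log axis, ordered by their mean in Control KO libraries, with Carm1 KO as circles on the left and Control KO as squares on the right of each gene. Eif3e, Eif3f, Eif3h and Eif3m are higher in Carm1 KO libraries, and Eif3b shows the widest gap downwards, at 140.3 TPM in Carm1 KO and 457 TPM in Control KO libraries on average.

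The eIF4 proteins bind the cap, unwind the leader of the mRNA and join it to eIF3. Eif4e, the cap-binding protein (ENSMUSG00000028156, chromosome 3, 138526179 to 138559696, plus strand, mm10), had 50.9, 49.4, 48.1 and 50.6 CPM in the Carm1 KO libraries, against 144, 143, 142 and 142 CPM in the Control KO libraries. It fell 2.87-fold with no overlap (log2 fold change -1.52 ± 0.025, edgeR adjusted p = 2.57e-38). Eif4e3, a relative that also binds caps, had 71.0, 66.3, 68.5 and 71.5 CPM in the Carm1 KO libraries, against 145, 140.4, 144 and 140.2 CPM in the Control KO libraries, and fell 2.05-fold (log2 fold change -1.04 ± 0.026, edgeR adjusted p = 4.78e-32). Eif4e2, a relative known as a repressor of cap-dependent translation, had 151, 150.2, 141 and 148 CPM in the Carm1 KO libraries, against 142, 139.9, 138 and 147 CPM in the Control KO libraries. Its groups overlapped, and its log2 fold change of 0.06 ± 0.025 (SE; edgeR adjusted p = 0.0391) was lost with RLE factors (adjusted p = 0.131), DESeq2 (adjusted p = 0.438), no filter (adjusted p = 0.324) and the replicate block (adjusted p = 0.0642). It was also lost in 6 of the 8 fits without 1 library, those without Carm1 KO replicate 1, 2 or 4 or Control KO replicate 1, 2 or 3 (adjusted p = 0.0911 to 0.309). Eif4e1b had 0 counts in all 8 libraries, which at 3 counts allows up to 0.0724 to 0.0799 CPM per library.

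The scaffold gene Eif4g1 had 306, 316, 308 and 314 CPM in the Carm1 KO libraries, against 811, 821, 813 and 832 CPM in the Control KO libraries, and fell 2.64-fold (log2 fold change -1.40 ± 0.022, edgeR adjusted p = 1.70e-39). Eif4g2, a shorter relative that does not bind eIF4E, had 510.1, 522, 515 and 530.3 CPM in the Carm1 KO libraries, against 1177, 1147, 1156 and 1151 CPM in the Control KO libraries, a 2.23-fold fall (log2 fold change -1.16 ± 0.021, edgeR adjusted p = 6.42e-37). Eif4g3, the closest paralogue of Eif4g1, had 152, 159, 160.3 and 156 CPM in the Carm1 KO libraries, against 174, 173, 169 and 177 CPM in the Control KO libraries. These groups did not overlap, but the log2 fold change of -0.14 ± 0.023 (SE; edgeR adjusted p = 6.99e-07) turned positive with upper-quartile factors and with library totals alone.

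Among the helicases, Eif4a1, which unwinds leaders with eIF4G, had 492, 479, 480.4 and 487 CPM in the Carm1 KO libraries, against 1361, 1389, 1368 and 1353 CPM in the Control KO libraries. It fell 2.82-fold (log2 fold change -1.50 ± 0.021, edgeR adjusted p = 4.79e-41), and a processed pseudogene of eIF4A, Eif4a-ps4, summed to 2089 counts over the Carm1 KO and 5682 counts over the Control KO libraries, and reads of the gene and its copy may have been shared. Eif4a2, its paralogue, had 381, 381, 367 and 389 CPM in the Carm1 KO libraries, against 397, 385, 394 and 375 CPM in the Control KO libraries. The groups overlapped and the log2 fold change of -0.03 ± 0.023 (SE; edgeR adjusted p = 0.199) did not pass, and it turned positive with upper-quartile factors, library totals alone and a filter of at least 5 CPM. Eif4a3, the helicase of the exon junction complex, had 109, 107, 109 and 108 CPM in the Carm1 KO libraries, against 249, 258, 249 and 257 CPM in the Control KO libraries, and fell 2.33-fold (log2 fold change -1.22 ± 0.023, edgeR adjusted p = 1.39e-36). Eif4h, a helper of the helicase, fell 1.28-fold to 361 ± 5.10 CPM in Carm1 KO, against 462 ± 4.29 CPM in Control KO libraries. The other helper, Eif4b, was at 715 ± 3.57 CPM in Carm1 KO and 807 ± 7.71 CPM in Control KO libraries, a log2 fold change of -0.17 that turned positive with upper-quartile factors. In TPM Eif4b (478 ± 16.5) lay above Eif4a1 (288 ± 6.91) in Carm1 KO libraries, whereas Eif4a1 (784 ± 7.98) lay above Eif4b (520.3 ± 10.5) in Control KO libraries.

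The 4E-binding proteins, which hold eIF4E away from eIF4G until mTORC1 phosphorylates them, differed less between the groups than Eif4e. Eif4ebp1 had 39.0, 37.8, 37.4 and 35.1 CPM in the Carm1 KO libraries, against 38.5, 41.6, 37.3 and 41.1 CPM in the Control KO libraries. The groups overlapped, and the log2 fold change of -0.08 ± 0.037 (SE; edgeR adjusted p = 0.0318) turned positive with upper-quartile factors, library totals alone and a filter of at least 5 CPM. It was also lost without Carm1 KO replicate 4 (adjusted p = 0.117) and without Control KO replicate 2 (adjusted p = 0.0971) or 4 (adjusted p = 0.0694). Eif4ebp2 had 123, 134, 132 and 121 CPM in the Carm1 KO libraries, against 131, 132, 129 and 131 CPM in the Control KO libraries. It overlapped too and did not pass (log2 fold change -0.04 ± 0.027, edgeR adjusted p = 0.194), with a positive sign under upper-quartile factors and library totals alone. Eif4ebp3 was under the count filter, with 8, 6, 4 and 8 counts in the Carm1 KO libraries, against 11, 9, 11 and 14 counts in the Control KO libraries. Eif4enif1, which shuttles eIF4E into the nucleus, had 116, 117, 116 and 119 CPM in the Carm1 KO libraries, against 99.2, 98.8, 96.2 and 96.4 CPM in the Control KO libraries. It rose 1.20-fold with no overlap (log2 fold change 0.26 ± 0.024, edgeR adjusted p = 5.20e-13).

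Among 17 genes of mTORC1 and MNK signalling, which acts on the eIF4 proteins, 7 were higher, 8 lower and 2 not past the test, close to the shares over all genes tested (44.5% higher and 43.2% lower). With upper-quartile factors or library totals alone 5 were lower. Larp1, which represses mRNAs with a pyrimidine run at the start, was at 246 ± 4.83 CPM in Carm1 KO and 568 ± 7.60 CPM in Control KO libraries (2.31-fold lower, edgeR adjusted p = 5.51e-37). Pdcd4, an inhibitor of Eif4a1, was at 387 ± 9.60 CPM in Carm1 KO and 178 ± 0.718 CPM in Control KO libraries and rose 2.18-fold. Rheb, the activator of mTORC1, fell 1.92-fold, and Ddit4, an inhibitor of mTORC1, rose 1.54-fold to 344 ± 7.80 CPM in Carm1 KO, against 223 ± 6.07 CPM in Control KO libraries. Poly(A)-binding proteins and their partners, which close the mRNA loop with eIF4G, had 2 of 7 higher and 5 lower, but 3 lower with upper-quartile factors, with library totals alone or with a filter of at least 5 CPM. Pabpc1, the highest of the 7 in CPM, rose 1.21-fold. It was at 2326 ± 48.1 CPM in Carm1 KO and 1917 ± 25.6 CPM in Control KO libraries. Larp4 fell 3.28-fold to 49.2 ± 0.307 CPM in Carm1 KO, against 161 ± 4.31 CPM in Control KO libraries. Pabpc4 fell 2.28-fold, Larp4b fell 1.33-fold, and Paip2, which pulls the binding protein off poly(A), rose 1.48-fold.

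The factors of subunit joining were lower. Eif5, which triggers GTP hydrolysis by eIF2, fell 1.69-fold to 244 ± 2.96 CPM in Carm1 KO, against 412 ± 4.87 CPM in Control KO libraries, and Eif5b, which joins the large subunit, fell 1.87-fold to 114 ± 4.08 CPM in Carm1 KO, against 214 ± 3.98 CPM in Control KO libraries. Eif6 (ENSMUSG00000027613, chromosome 2, 155819832 to 155826925, minus strand, mm10), which keeps free large subunits from joining too early, had 93.5, 85.4, 84.7 and 88.0 CPM in the Carm1 KO libraries, against 245, 256, 249.7 and 258 CPM in the Control KO libraries. It fell 2.87-fold with no overlap (log2 fold change -1.52 ± 0.027, edgeR adjusted p = 4.87e-35).

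Eif5a showed the largest fall of all 62 genes, while its paralogue Eif5a2 rose. Eif5a (ENSMUSG00000078812, chromosome 11, 69916714 to 69921958, minus strand, mm10) had 432, 419, 418 and 429.8 CPM in the Carm1 KO libraries, against 2358, 2398, 2341 and 2364 CPM in the Control KO libraries. It fell 5.57-fold (log2 fold change -2.48 ± 0.021, edgeR adjusted p = 3.27e-48), and the groups were far apart. A processed pseudogene, Eif5al3-ps, held 32 counts in all over the Carm1 KO and 213 counts over the Control KO libraries. Pseudogenes were sought only by symbols that begin like those of the factors, so copies named otherwise were not counted. Eif5a2 (ENSMUSG00000050192, chromosome 3, 28781276 to 28798846, plus strand, mm10) had 12.4, 11.97, 11.9 and 11.8 CPM in the Carm1 KO libraries, against 9.70, 7.99, 9.66 and 8.30 CPM in the Control KO libraries, a 1.35-fold rise with no overlap (log2 fold change 0.43 ± 0.06, edgeR adjusted p = 2.55e-08). Per length Eif5a remained the higher of the pair, at 459 ± 8.41 TPM in Carm1 KO and 2472 ± 41.4 TPM in Control KO libraries, while Eif5a2 was at 6.15 ± 0.203 TPM in Carm1 KO and 4.41 ± 0.471 TPM in Control KO libraries.

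Eif5a works only after hypusine is built on it by Dhps and Dohh, and Eef2 carries diphthamide made by the Dph enzymes. All 9 tested genes of these modifications were lower in Carm1 KO libraries, with a median log2 fold change of -0.96, where 43.2% of all genes tested were lower. Dohh was at 33.8 ± 1.73 CPM in Carm1 KO and 65.8 ± 1.83 CPM in Control KO libraries (1.95-fold lower, edgeR adjusted p = 4.29e-27), and Dhps had a log2 fold change of -0.86. Dph6, Dph3 and Dph2 fell 2.63-fold, 2.38-fold and 2.26-fold.

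Among the elongation factors and their modifiers 9 of 10 tested genes were called lower, where 43.2% of all genes tested were, and Eef2 was higher. The 9 lower genes were 4 that encode the kinase and methyltransferases and 5 grouped by name with eEF1, Eef1e1 among them. Of the 9, 3 (Eef1a1, Eef1b2 and Eef2k) turned positive with upper-quartile factors and with library totals alone. Eef2, the translocase (ENSMUSG00000034994, chromosome 10, 81176631 to 81182507, plus strand, mm10), had 7999, 7962, 8053 and 7731 CPM in the Carm1 KO libraries, against 4986, 5213, 5101 and 5182 CPM in the Control KO libraries. It rose 1.55-fold with no overlap (log2 fold change 0.63 ± 0.019, edgeR adjusted p = 1.22e-29). Eef2k, the kinase that switches Eef2 off, had 32.9, 34.2, 33.0 and 32.5 CPM in the Carm1 KO libraries, against 35.2, 36.6, 34.8 and 34.99 CPM in the Control KO libraries. These groups lay close together without overlap, and the log2 fold change of -0.09 ± 0.034 (SE; edgeR adjusted p = 0.0103) turned positive with upper-quartile factors and with library totals alone. Eef2kmt, which methylates Eef2, fell 1.48-fold to 20.8 ± 0.207 CPM in Carm1 KO, against 30.8 ± 1.03 CPM in Control KO libraries.

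Eef1a1, which delivers aminoacyl-tRNA and was the most abundant member per length, had 14867, 14378, 14210 and 14649 CPM in the Carm1 KO libraries, against 15426, 15791, 15785 and 15556 CPM in the Control KO libraries. Its log2 fold change of -0.11 ± 0.017 (SE; edgeR adjusted p = 3.38e-07) turned positive with upper-quartile factors and with library totals alone, and in TPM it was at 14987 ± 269 TPM in Carm1 KO and 15587 ± 97.1 TPM in Control KO libraries. Eef1b2, an exchange factor for it, had 1192, 1085, 1074 and 1177 CPM in the Carm1 KO libraries, against 1175, 1214, 1202 and 1185 CPM in the Control KO libraries. The groups overlapped, and the log2 fold change of -0.08 ± 0.028 (SE; edgeR adjusted p = 0.0141) turned positive under the same scalings and with a filter of at least 5 CPM, and was lost without Carm1 KO replicate 2 (adjusted p = 0.0643). Eef1d, the other exchange subunit, fell 1.41-fold to 255 ± 11.8 CPM in Carm1 KO, against 359 ± 7.92 CPM in Control KO libraries.

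Larger falls were found for Eef1g, the structural subunit, which fell 2.60-fold to 629 ± 17.1 CPM in Carm1 KO, against 1638 ± 22.8 CPM in Control KO libraries. Eef1e1 (ENSMUSG00000001707, chromosome 13, 38645698 to 38659028, minus strand, mm10), which sits in the multi-synthetase complex, had 24.7, 23.7, 23.2 and 24.5 CPM in the Carm1 KO libraries, against 86.9, 85.3, 84.8 and 85.5 CPM in the Control KO libraries. It fell 3.56-fold (log2 fold change -1.83 ± 0.03, edgeR adjusted p = 1.30e-38), far beyond the spread of the libraries. In TPM Eef1b2 (1149 ± 21.8) lay above Eef1g (622 ± 19.4) in Carm1 KO libraries, and Eef1g (1565 ± 23.9) above Eef1b2 (1172 ± 4.83) in Control KO libraries. Likewise Eef1d (111 ± 2.29) lay above Eef1e1 (59.9 ± 0.700) in Carm1 KO libraries, and Eef1e1 (206 ± 5.49) above Eef1d (151 ± 2.18) in Control KO libraries.

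Lysine methyltransferases of eEF1A were lower where they could be tested. Eef1akmt1 fell 1.73-fold to 14.5 ± 0.789 CPM in Carm1 KO, against 25.1 ± 1.98 CPM in Control KO libraries, and Eef1akmt2 fell 1.34-fold. Eef1akmt3 was under the count filter, with 11, 13, 10 and 7 counts in the Carm1 KO libraries, against 4, 4, 6 and 2 counts in the Control KO libraries. Eef1a2, the form of muscle and nerve, had 1 count in Carm1 KO replicate 1 and 0 counts in the other 7 libraries.

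Other stages of protein synthesis were counted beside the factors, and each count is to be read against the 44.5% of all genes tested that were higher and the 43.2% that were lower. In termination and recycling 2 of 10 tested genes were higher, 7 lower and 1 not past the test (median log2 fold change -0.76), with 4 higher under upper-quartile factors. The release factor genes Etf1 and Gspt1 fell 2.03-fold and 2.88-fold, Abce1, which splits ribosomes, fell 2.62-fold, and Gtpbp2, a partner of the ribosome rescue factor Pelo, rose 2.17-fold to 269 ± 4.32 CPM in Carm1 KO, against 124 ± 3.21 CPM in Control KO libraries. The list of 22 cytosolic aminoacyl-tRNA synthetase genes also holds Aimp1 and Aimp2, which encode partners of the enzymes and not synthetases. Of the 22 genes 20 were lower, 1 (Aimp1) was higher and 1 (Qars) was not past the test, with a median of -1.39. The count higher was 2 under upper-quartile factors, library totals alone or a filter of at least 5 CPM. Nars, Rars, Mars and Farsb fell 3.28-fold, 3.30-fold, 3.13-fold and 3.27-fold. Of 83 tested ribosomal protein genes 47 were higher, 25 lower and 11 did not pass, with a median of 0.15. With upper-quartile factors 62 were higher and 15 lower. Rpl7l1 and Rpl10 fell 2.37-fold and 1.71-fold, and Rpl29 rose 1.56-fold. Ribosomal protein genes have many processed pseudogenes, and their counts are uncertain. Mitochondrial translation factors were mixed, with 3 of 10 higher, 4 lower and 3 not past the test, but 6 higher with upper-quartile factors and 5 higher with library totals alone. The elongation factor genes Gfm1, Tufm and Tsfm fell 2.17-fold, 1.77-fold and 1.62-fold, and Mtif3, an initiation factor, rose 1.42-fold.

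Ratios of paired factors within a library do not depend on scaling between libraries, so they were used to compare partners and paralogues. A log2 ratio of counts carries the lengths of both genes, so only its difference between the groups is read. Of 18 fixed pairs 17 had enough counts (Eef1a1/Eef1a2 did not), and 14 differed by an exact two-sided permutation test over the 8 libraries. The share of other gene pairs that differ was not counted, and 83.4% of all single genes tested did not overlap between the groups. The count of pairs is thus no trait of these pairs. For each of the 14 the p was 0.0286, the smallest that 4 against 4 allows, and adjusted over the 17 pairs 0.0347. The log2 ratio of Eif5a to Eif5a2 was 5.12, 5.13, 5.13 and 5.19 in the Carm1 KO libraries, against 7.92, 8.23, 7.92 and 8.15 in the Control KO libraries, a difference of -2.91 between group means. Every Carm1 KO library lay below every Control KO library, and this was the widest difference among the 17 pairs.

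The ratios of Eif4e to its relatives and to Eif4enif1 were lower in Carm1 KO libraries. Its log2 ratio to Eif4enif1 was -1.23 ± 0.031 in Carm1 KO and 0.55 ± 0.013 in Control KO libraries, a difference of -1.78. The ratio to Eif4e2 was -1.57 ± 0.027 in Carm1 KO and 0.01 ± 0.044 in Control KO libraries, a difference of -1.58, and that to Eif4e3 differed by -0.48. The log2 ratio of Eif4ebp1 to Eif4e was -0.38, -0.39, -0.36 and -0.53 in the Carm1 KO libraries, against -1.90, -1.79, -1.93 and -1.79 in the Control KO libraries, a difference of 1.44. The repressor transcript thus lay 2.70-fold higher relative to its target transcript in Carm1 KO libraries, with no overlap.

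Among the helicases and scaffolds the log2 ratio of Eif4a1 to Eif4a2 was 0.37, 0.33, 0.39 and 0.32 in the Carm1 KO libraries, against 1.78, 1.85, 1.79 and 1.85 in the Control KO libraries, a difference of -1.47. Eif4a1 to Eif4a3 differed by -0.28, Eif4g1 to Eif4g3 by -1.26 and Eif4g1 to Eif4g2 by -0.24. Eif4a1 and Eif4g1 were thus lower relative to each of these paralogues. Eif2ak3 to Eif2ak4 was 2.24 ± 0.076 in Carm1 KO and 0.65 ± 0.084 in Control KO libraries, a difference of 1.59. Eif2b5 to Eif2s1, the gene of the eIF2 alpha subunit, differed by 0.23. Eif1 to Eif1b differed by 0.57, Eif1a to Eif1ax by -0.27, and Eef2k to Eef2 was -7.90 ± 0.032 in Carm1 KO and -7.18 ± 0.031 in Control KO libraries, a difference of -0.73.

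The 3 pairs that did not pass were Eif4ebp1 to Eif4ebp2, Eif3j1 to Eif3j2 and Eef1b2 to Eef1a1. Eif4ebp1 to Eif4ebp2 was -1.77 ± 0.078 in Carm1 KO and -1.72 ± 0.061 in Control KO libraries (exact permutation p = 0.314). Eif3j1 to Eif3j2 was 4.52 ± 0.19 in Carm1 KO and 4.65 ± 0.11 in Control KO libraries (exact permutation p = 0.314), and Eef1b2 to Eef1a1 was -3.68 ± 0.051 in Carm1 KO and -3.71 ± 0.0066 in Control KO libraries (exact permutation p = 0.429). Their groups overlapped. The smallest p of 3 against 4 libraries is 0.0571, so no pair can pass with a library left out.

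**Figure D4:**
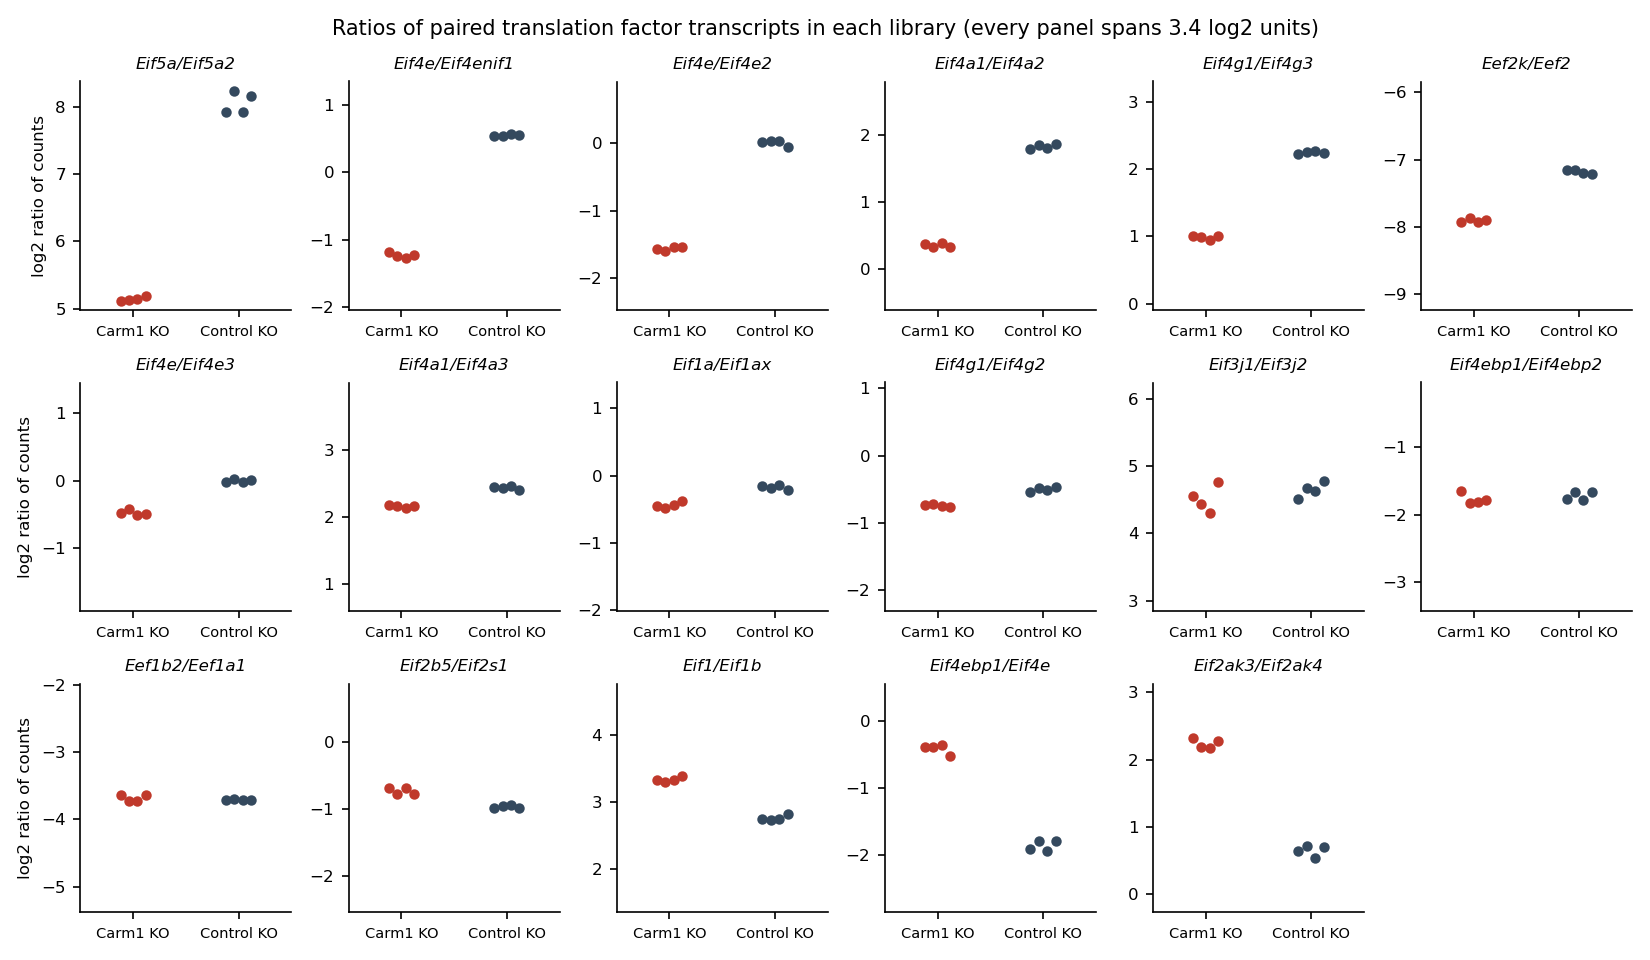
Log2 ratios of counts for the 17 tested pairs in each library, Carm1 KO on the left and Control KO on the right, ordered by the difference between group means, with every panel spanning 3.4 log2 units. The groups lie apart in 14 panels and overlap for Eif3j1/Eif3j2, Eif4ebp1/Eif4ebp2 and Eef1b2/Eef1a1, and Eif5a/Eif5a2 shows the widest gap, with means of 5.14 in Carm1 KO and 8.05 in Control KO libraries.

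The share of all counts in the 66 genes together was 3.72%, 3.70%, 3.68% and 3.68% in the Carm1 KO libraries, against 3.85%, 3.87%, 3.88% and 3.87% in the Control KO libraries. The groups lay apart by a small step. These shares are of each library's total counts, without the TMM factors, so they are not on the scale of the CPM values and fold changes above. Initiation factors held 1.10% ± 0.00422 of counts in Carm1 KO and 1.58% ± 0.00466 in Control KO libraries. Elongation factors held 2.60% ± 0.0188 in Carm1 KO and 2.28% ± 0.0165 in Control KO libraries, and Eef1a1 and Eef2 made up most of these counts. The other 64 genes held 1.32% ± 0.00971 in Carm1 KO and 1.90% ± 0.00258 in Control KO libraries. In TPM the initiation share kept its gap, at 0.880% to 0.925% in Carm1 KO and 1.30% to 1.34% in Control KO libraries. The elongation share then overlapped, at 2.30% to 2.41% in Carm1 KO and 2.28% to 2.32% in Control KO libraries.

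**Figure D5:**
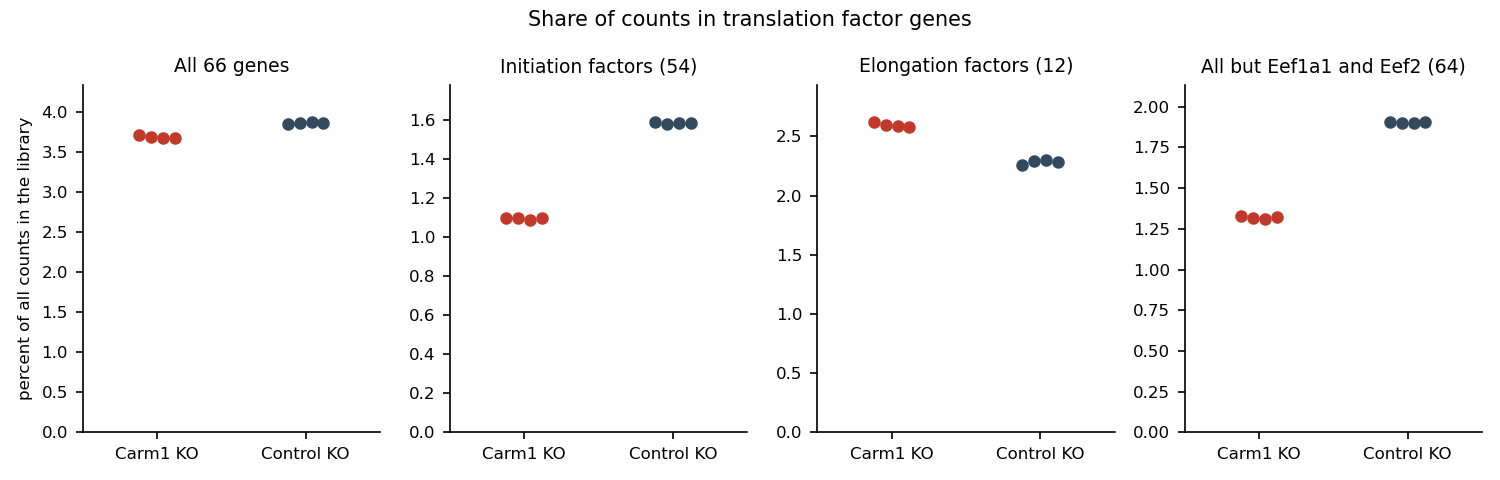
Percent of all counts of a library that fell in all 66 translation factor genes, the 54 initiation factors, the 12 elongation factors and the 64 genes other than Eef1a1 and Eef2, with Carm1 KO on the left and Control KO on the right of each panel and the axes starting at 0. The initiation share is 1.09% to 1.10% in Carm1 KO and 1.58% to 1.59% in Control KO libraries, and the elongation share is 2.58% to 2.62% in Carm1 KO and 2.26% to 2.30% in Control KO libraries.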

How the data were processed

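Polyadenylated RNA of 4 Carm1 KO and 4 Control KO libraries was sequenced with paired 150 bp reads, per the labels' protocols, from RNA of integrity number above 9.5 and with a TruSeq kit whose libraries are unstranded. The authors deposited whole-number counts per Ensembl gene with exons and lengths, made with RSEM on mm10 per the submitters' processing notes. For the aligner, annotation release and versions, the labels used here name none. RSEM estimates need not be whole, and no label says how they became so. Reads shared by paralogues or pseudogenes may have been split or dropped. Symbols came from GENCODE M21 (49056 of 49315 identifiers, those without a symbol holding 0.0107% to 0.0158% of counts).

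The counts were used as deposited. Genes passing filterByExpr (14970) were scaled by TMM factors (1.05 to 1.07 in Carm1 KO and 0.938 to 0.953 in Control KO libraries) and tested with robust quasi-likelihood F tests in edgeR 4.0.16 (R 4.3.3), two-sided, with Benjamini-Hochberg adjustment over all 14970. The SE is the size of the log2 fold change divided by the square root of F. TPM used the deposited gene lengths. Log2 ratios used a pseudocount of 0.5 and exact permutation tests (scipy 1.17.1). At these depths 3 counts are 0.0724 to 0.0799 CPM in a library, a limit for counting error only.

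Groups came from the source names. All libraries differed beyond sampling noise and none was treated as a duplicate, since a chi-square test of counts gave 1.45 to 13.5 per degree of freedom within groups. The replicate numbers do not pair the libraries (correlations of same-numbered deviations -0.0848 to -0.0509). The genes and lists were chosen with earlier results of these data known. The named genes were the 6 largest rises and falls among called genes with at least 5 CPM and no overlap, the members of 18 fixed pairs, the 5 members highest in TPM, those not tested or not passed, and up to 4 genes per related list with the smallest adjusted p. The other translation factors that the text names, and Dhps, Pabpc1, Aimp1, Aimp2 and Qars, fall outside this rule and were chosen after their values were seen. 1 gene that the rule names is not reported here. On simulated counts for 14970 genes of this comparison the edgeR step recovered 54%, 82%, 94% and 96% of 50 genes each changed 1.25-, 1.5-, 2- and 4-fold and called 10 of 14770 unchanged genes. The simulation changed few genes, up and down alike, while 87.7% of all genes tested were called in the real counts. Its rates therefore need not hold for them. Alternatives were limma-voom (limma 3.58.1), DESeq2 1.42.0, scaling by library totals alone, by RLE or by upper-quartile factors, a filter of at least 5 CPM in 4 libraries or none, edgeR's test against a 1.5-fold change, a block for the replicate number, each library left out, a pseudocount of 2, and shares in TPM or without mitochondrially encoded genes.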

Additional observations from a re-analysis of the deposited data

Results flagged for a closer look

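In 9 of 168 groups of 4 values examined (CPM of translation factors and paired ratios), 1 library stood apart from the other 3 relative to the group's range. Chance flags about 1 in 20 groups. Carm1 KO replicate 1 was high for Eif2b2 (78.93 CPM, the others 74.85 to 75.51), for Eif3h (701.7 CPM, the others 692 to 692.6) and for Eif3i (229.6 CPM, the others 213.7 to 216.2). Control KO replicate 1 was low for Eif2b2 (67.8 CPM, the others 71.73 to 72.14) and high for Eif2s1 (257 CPM, the others 248.5 to 249.9). Control KO replicate 4 was low for Eif2b5 (125.5 CPM, the others 129.2 to 129.9), and Control KO replicate 3 was high for Eif3a (600.4 CPM, the others 596.7 to 597). The log2 ratio of Eif4ebp1 to Eif4e was -0.527 in Carm1 KO replicate 4 and -0.3866 to -0.3629 in the others of that group, and that of Eef1b2 to Eef1a1 was -3.702 in Control KO replicate 2 and -3.715 to -3.714 in the others.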

How the results depend on the processing

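Of the 62 tested genes 49 kept their call and 52 their direction in every setting other than the test against a 1.5-fold change. With upper-quartile factors 21 were higher, and against 1.5-fold 4 were higher and 29 lower. The count at least 2-fold higher was 2 with no filter and 1 to 2 with a library left out, Eef1akmt3 entering. The median log2 fold change was -0.34 with upper-quartile factors, -0.39 with library totals alone, -0.58 with no filter, -0.45 with at least 5 CPM and -0.58 with DESeq2. The replicate block gave 11 higher and 48 lower, and the call it changed was that of Eif4e2 (log2 fold change 0.06, adjusted p = 0.0642). With 3 against 4 libraries no paired ratio could pass (0 with each library left out).

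Directions turned as follows. With upper-quartile factors log2 fold changes were 0.109 for Eef1a1, 0.138 for Eef1b2, 0.12 for Eef2k, 0.0726 for Eif1, 0.10 for Eif3k, 0.184 for Eif4a2, 0.0411 for Eif4b, 0.131 for Eif4ebp1, 0.178 for Eif4ebp2 and 0.0737 for Eif4g3. With library totals alone they were 0.0537 for Eef1a1, 0.083 for Eef1b2, 0.0655 for Eef2k, 0.0176 for Eif1, 0.0455 for Eif3k, 0.129 for Eif4a2, 0.0756 for Eif4ebp1, 0.124 for Eif4ebp2 and 0.019 for Eif4g3, and with at least 5 CPM 0.0163 for Eef1b2, 0.0618 for Eif4a2 and 0.00845 for Eif4ebp1. The move of the median of all genes under these settings is 0.215, 0.160 and 0.0931.

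In TPM the share differed by -0.349 percentage points for all factors, -0.418 for initiation and 0.0690 for elongation factors, against -0.174, -0.488 and 0.314 in counts. Counts in the related lists moved with upper-quartile factors (4 higher in termination and recycling, 5 lower in mTORC1 and MNK signalling, 4 higher among eIF2 kinase partners, 3 lower among poly(A)-binding proteins, 6 higher among mitochondrial factors, 15 lower among ribosomal proteins and 2 higher among synthetases). With library totals alone mTORC1 and MNK signalling had 5 lower, poly(A)-binding proteins 3 lower, mitochondrial factors 5 higher and synthetases 2 higher, and with at least 5 CPM poly(A)-binding proteins had 3 lower and synthetases 2 higher. Against 1.5-fold the counts were 1 higher in termination, 4 higher and 2 lower in mTORC1 and MNK signalling, 0 higher and 2 lower among eIF2 kinase partners, 0 higher and 2 lower among poly(A)-binding proteins, 0 higher among mitochondrial factors, 7 higher and 9 lower among ribosomal proteins and 0 higher among synthetases. Beyond the scalings themselves the cause of these moves was not tested. The 4 untested genes had 14 counts or fewer per library, and the part of depth in this was not tested.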
